A study of Mus musculus with 6 samples.

Results

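Sgk1 and 8 other genes that glucocorticoids are known to induce (Fkbp5, Tsc22d3, Zbtb16, Ddit4, Pdk4, Klf9, Errfi1 and Cdkn1a) were examined together with the receptor gene Nr3c1 in bulk RNA from the mouse tissue labelled PFC. The 10 genes were chosen by name, as known targets and their receptor, with earlier results of these data known. Counts of them set against all genes are therefore descriptions only. All 10 passed the filter on low counts that left 20694 of the 53640 genes shared by the 6 tables. Corticosterone, the main glucocorticoid of mice, enters cells and binds the glucocorticoid receptor, which is held in the cytoplasm by Hsp90 and its co-chaperones. The bound receptor moves to the nucleus, binds DNA at glucocorticoid response elements and raises the transcription of genes such as these. In the brain their RNA levels follow circulating hormone, which varies with stress and time of day, and several of them also answer to other signals. Hormone levels and the time of collection were not analysed here.

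The data were 6 total RNA libraries from 6-month-old mice, 2 per group. The control group carried the (C57BL/6 x C3H) background and received vehicle. The tau group carried the PS19(P301S) genotype, in which human P301S tau is driven by the mouse prion promoter, and also received vehicle. The treated tau group carried the same PS19(P301S) genotype and received WDR5-0103, a small molecule that binds the histone methyltransferase partner WDR5. The names control, tau and treated tau stand for these groups, and libraries keep the numbers of their titles. The labels call the 2 samples of each group biological duplicates, without saying whether tissue was pooled. Dose and duration of treatment were not analysed here.

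Libraries held from 17690811 counts (tau 2) to 34774643 counts (treated tau 1). Levels are given as CPM, reads of a gene relative to the library's total after scaling by the TMM method. The library labels were checked first. The prion gene Prnp, whose promoter drives the transgene, was at 1654 CPM in the library labelled control 1, at 876 CPM in control 2 and at 1472 to 1876 CPM in the 4 tau and treated tau libraries, so the library labelled control 1 lay at the transgenic level. The X-inactivation RNA Xist was at or below 2.43 CPM in the library labelled control 1 and both treated tau libraries, and between 186 and 318 CPM in control 2 and both tau libraries, so sex cannot be told apart from treatment in the comparison of treated tau with tau. Markers of excitatory cortical neurons were high in every library, with Slc17a7 between 891 and 1005 CPM. The content of the libraries differed in other regions' markers. The 9 markers of striatal projection neurons summed to 256 CPM in tau 2, 145 CPM in tau 1 and 99.1 to 123 CPM in the other libraries. Both tau libraries lay above both controls for 8 of the 9 (20.3% of all genes). Both treated tau libraries lay below both tau libraries for 7 (20.1% of all genes). In that comparison 3 of the 9 were called lower (edgeR adjusted p below 0.05), against 140 of all 20694 genes. The olfactory bulb markers summed to 74.4 CPM in the library labelled control 1 against 2.80 to 5.17 CPM elsewhere. In bulk tissue, fewer cells of a type and less RNA per cell cannot be told apart.

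Among the 10 genes, 8 had their highest level in tau 2, against 16.9% of all genes tested. The exceptions were Nr3c1 and Cdkn1a. Sgk1 showed it most: it was 2.75 times as high in tau 2 as in tau 1, its replicate. No member passed the test in any of the 3 group comparisons, and leaving out tau 2 brought the Sgk1 difference between tau and control from 1.08 to 0.19 on the log2 scale. What follows gives each gene by library.

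Sequences just before the annotated starts are shown first, because they include the only exact palindrome of the receptor's half-sites in the promoter windows of these genes. The receptor binds as a dimer to 2 half-sites, AGAACA and TGTTCT, that face each other across 3 bases. RefSeq promoter windows (GRCm38.p6, 250 bases before to 50 bases after each start) were matched for 8 of the 10 genes, with 17 windows in all. Zbtb16 and Nr3c1 had no window. The half-site TGTTCT, searched on both strands as TGTTCT or AGAACA, was in 4 of the 17 windows (23.5%) and in 6233 of all 32851 windows (19.0%). The 4 were windows 1, 4 and 5 of Sgk1 and window 1 of Tsc22d3. No window of Fkbp5, Ddit4, Pdk4, Klf9 or Errfi1, also highest in tau 2, held a half-site, nor did those of Cdkn1a. The palindrome of AGAACA, any 3 bases and TGTTCT, which contains both half-sites and reads the same on both strands apart from its gap, was in 1 of the 17 windows. It was in 3 of all 32851 windows (0.00913%), those of Sgk1, Acnat2 and Gm35041. A match is a description of the letters and does not show that the receptor binds there, and a window without a match leaves more distant elements unexamined. The lines below print the 250 bases before 2 neighbouring Sgk1 starts and the first Tsc22d3 start, 5′ to 3′ on the gene's strand, with half-sites in capitals. They compare the window that holds the palindrome, the next Sgk1 start downstream, which holds no half-site, and the Tsc22d3 window with its single half-site.
Sgk1 window 5, plus strand, chr10:21993640-21993889: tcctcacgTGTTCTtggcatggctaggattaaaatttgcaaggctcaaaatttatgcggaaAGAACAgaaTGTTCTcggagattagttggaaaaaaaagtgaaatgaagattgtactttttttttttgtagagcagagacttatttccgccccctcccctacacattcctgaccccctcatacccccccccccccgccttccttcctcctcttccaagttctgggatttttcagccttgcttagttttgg
Sgk1 window 6, plus strand, chr10:21994416-21994665: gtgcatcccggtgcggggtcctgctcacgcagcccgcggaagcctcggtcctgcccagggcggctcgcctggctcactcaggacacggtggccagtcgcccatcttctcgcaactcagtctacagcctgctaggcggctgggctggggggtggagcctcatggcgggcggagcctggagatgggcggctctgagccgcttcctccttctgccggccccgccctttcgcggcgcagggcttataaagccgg
Tsc22d3 window 1, minus strand, chrX:140600523-140600772: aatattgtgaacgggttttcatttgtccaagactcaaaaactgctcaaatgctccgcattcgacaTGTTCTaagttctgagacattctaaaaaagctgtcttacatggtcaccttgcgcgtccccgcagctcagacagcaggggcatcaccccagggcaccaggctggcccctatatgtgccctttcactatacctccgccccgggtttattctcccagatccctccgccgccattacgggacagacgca

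The Sgk1 palindrome, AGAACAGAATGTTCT, lies at chr10:21993701-21993715 (GRCm38). It begins 189 bases before the start of window 5 and 965 bases before that of window 6. It falls inside the annotated span of Sgk1 (chr10:21882184-21999903, plus strand, GENCODE M21) but in none of its 18 merged exons, since longer transcripts begin upstream. A further half-site in window 5 lies 242 bases before the start. Gene counts sum all Sgk1 transcripts, so these data do not show which start was used.

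Nr3c1 encodes the glucocorticoid receptor (chromosome 18, 39410545 to 39519421, minus strand). It was at 205 and 223 CPM in control, 233 and 228 CPM in tau and 232 and 263 CPM in treated tau. It was the steadiest of the 10 genes, with the highest library 1.28 times the lowest, and tau 2 did not stand out. The log2 difference was 0.11 ± 0.09 (SE) for tau against control (edgeR adjusted p = 0.673), 0.10 ± 0.09 for treated tau against tau (adjusted p = 0.748) and 0.21 ± 0.08 for treated tau against control (adjusted p = 0.253). Both tau and both treated tau libraries lay above both controls, by margins that did not pass the test.

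Other parts of the receptor system were also near level. Of 14 listed genes, 13 were tested (Hsd11b2, which inactivates corticosterone, was filtered out), and none passed in any comparison. Their median log2 difference was -0.03 for tau against control, 0.07 for treated tau against tau and 0.12 for treated tau against control. Nr3c2, the mineralocorticoid receptor that also binds corticosterone, was between 58.5 and 63.5 CPM in all 6 libraries. Hsd11b1, which regenerates active hormone, was between 6.26 and 7.86 CPM. The smallest p-values of this list belonged to Ncoa2, a receptor coactivator (log2 difference 0.27 ± 0.08 in treated tau against tau, edgeR adjusted p = 0.153), and to the chaperones Ptges3 (0.32 ± 0.11 in treated tau against control, adjusted p = 0.184) and Hsp90aa1 (0.24 ± 0.09 in tau against control, adjusted p = 0.453). Crhr1, the receptor of corticotropin-releasing hormone, had a log2 difference of -0.32 ± 0.13 in tau against control (adjusted p = 0.471).

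Fkbp5 encodes an Hsp90 co-chaperone that lowers the receptor's affinity for hormone and so acts as feedback (chr17:28399094-28517527, minus strand). It was at 22.3 and 25.0 CPM in control, 28.8 and 35.4 CPM in tau and 30.9 and 27.7 CPM in treated tau. All 4 tau and treated tau libraries lay above both controls, and without tau 2 the remaining tau library still did. The log2 difference of tau from control was 0.43 ± 0.13 with all libraries (edgeR adjusted p = 0.441) and 0.28 ± 0.15 without tau 2 (adjusted p = 0.686). For treated tau against control it was 0.31 ± 0.13 (adjusted p = 0.277), and for treated tau against tau it was -0.12 ± 0.13 (adjusted p = 0.833). The counts behind Fkbp5 were 566 to 1056 reads per library, and tau 2 exceeded tau 1 by a ratio of 1.23 (95% exact counting interval 1.10 to 1.37), the smallest such ratio after that of Nr3c1.

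Sgk1 encodes a serine/threonine kinase of the AKT family that phosphorylates the ubiquitin ligase Nedd4l, FoxO factors and Ndrg1. In brain it is found in neurons and is also known to be induced by glucocorticoids in oligodendrocytes. It was at 67.3 CPM in the library labelled control 1, at 64.7 CPM in control 2, 75.2 CPM in tau 1 and 207 CPM in tau 2, and 122 CPM in treated tau 1 and 65.5 CPM in treated tau 2. Tau 2 was far above all others, treated tau 1 was second, and the remaining 4 libraries lay close together. The controls differed by a ratio of 1.04 (95% exact counting interval 0.971 to 1.11), while tau 2 exceeded tau 1 by 2.75 (2.60 to 2.91) and treated tau 1 exceeded treated tau 2 by 1.86 (1.75 to 1.96). These intervals cover counting error only and compare libraries, not conditions. Of the 10841 tested genes with an average log2 CPM of at least 3, Sgk1 included, 6 had a ratio of tau 2 to tau 1 as high as that of Sgk1, and 22 had as high a ratio of treated tau 1 to treated tau 2.

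Group means of Sgk1 were 66.0 ± 1.82 CPM in control, 141 ± 93.2 CPM in tau and 93.5 ± 39.6 CPM in treated tau (SD, n = 2 each). The log2 difference was 1.08 ± 0.40 for tau against control (edgeR adjusted p = 0.452), -0.58 ± 0.39 for treated tau against tau (adjusted p = 0.673) and 0.51 ± 0.40 for treated tau against control (adjusted p = 0.587). The first 2 values share the tau libraries, so tau 2 enters both with opposite sign. Without tau 2 they were 0.19 ± 0.28 (adjusted p = 0.877) and 0.32 ± 0.28 (adjusted p = 0.810), the second with its sign turned. Without treated tau 1 the difference of treated tau from control was -0.00 ± 0.45 (adjusted p = 0.998).

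**Figure D1:**
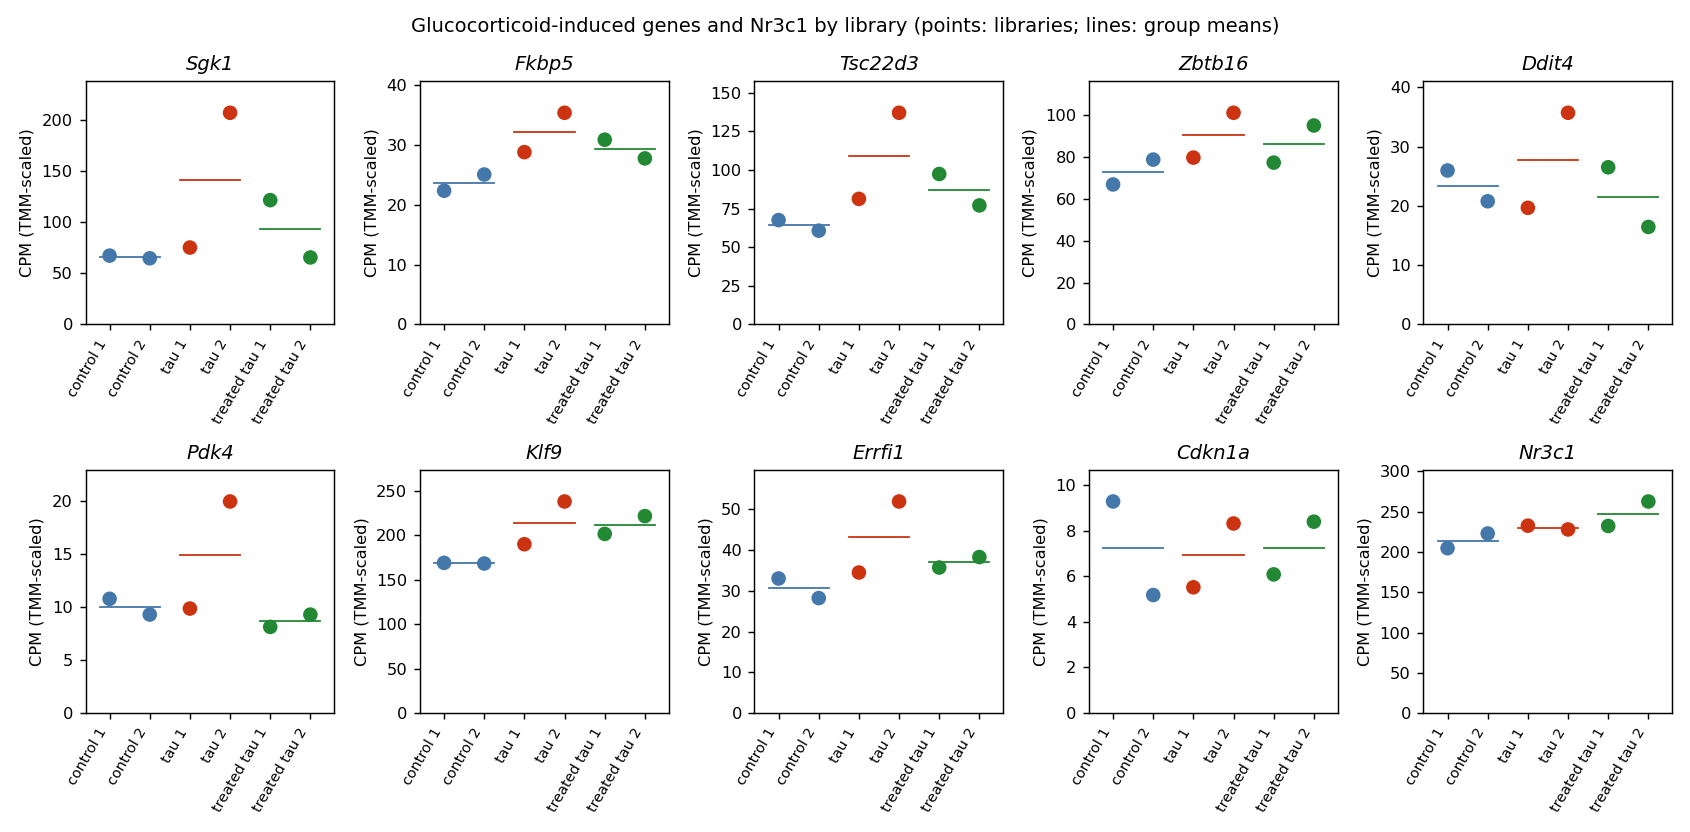
Level of each gene in TMM-scaled CPM (vertical axis, from 0) in the 6 libraries (horizontal axis), with points for libraries and lines for the means of the 2 libraries of a group. Sgk1 stands at 207 CPM in tau 2 and 122 CPM in treated tau 1 against 64.7 to 75.2 CPM in the other 4 libraries, while Nr3c1 stays between 205 and 263 CPM.

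Genes around Sgk1 did not follow it as a group. Its 10 listed partners and substrates had a median log2 difference of 0.06 in tau against control and none passed. Ndrg1, a substrate that is also rich in oligodendrocytes, was nearest to the pattern, at 41.2 and 32.9 CPM in control, 43.9 and 77.4 CPM in tau and 45.8 and 40.0 CPM in treated tau. It shared the high value in tau 2 but not that in treated tau 1. The log2 difference of Ndrg1 in tau against control was 0.70 ± 0.23 (edgeR adjusted p = 0.441), and that of Ndrg2, a related protein of astrocytes, was 0.23 ± 0.07 (adjusted p = 0.441). The paralog Sgk3 was between 18.9 and 22.8 CPM in all 6 libraries, and Sgk2 was at or below 1.43 CPM. All 12 listed paralogs of the members were tested, none passed, and their median log2 difference was 0.07 in tau against control, with Tsc22d4 at 0.37 ± 0.10 (adjusted p = 0.441) the smallest p of them.

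Tsc22d3 encodes GILZ, a leucine zipper protein that carries part of the anti-inflammatory action of glucocorticoids (chrX:140539528-140600659, minus strand). It was at 67.5 and 60.7 CPM in control, 81.3 and 137 CPM in tau and 97.4 and 77.0 CPM in treated tau. The order of libraries was close to that of Sgk1, with tau 2 highest and treated tau 1 second, but both controls were the lowest. Group means were 64.1 ± 4.84, 109 ± 39.4 and 87.2 ± 14.4 CPM (SD, n = 2 each). The log2 difference was 0.76 ± 0.21 for tau against control (edgeR adjusted p = 0.441) and 0.45 ± 0.21 for treated tau against control (adjusted p = 0.334). Treated tau against tau, whose libraries overlapped, gave -0.31 ± 0.21 (adjusted p = 0.656). Without tau 2 the first pair of values was 0.34 ± 0.15 (adjusted p = 0.685) and 0.45 ± 0.12 (adjusted p = 0.102). With the library labelled control 1 and tau 2 both left out, the value for treated tau against control was 0.53. Control 2, the control library left, had Xist at 318 CPM, and the treated tau libraries had it at 2.43 and 1.75 CPM. Sex therefore cannot be told apart from group in that value.

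Klf9, a zinc finger transcription factor that glucocorticoids induce in neurons (chr19:23141226-23168134, plus strand), was at 169 and 168 CPM in control, 190 and 238 CPM in tau and 202 and 222 CPM in treated tau. The 2 controls were nearly equal and the other 4 libraries all lay above them, with treated tau 2 rather than treated tau 1 second. The log2 difference was 0.34 ± 0.11 for tau against control (edgeR adjusted p = 0.441), 0.33 ± 0.11 for treated tau against control (adjusted p = 0.156) and -0.01 ± 0.11 for treated tau against tau (adjusted p = 0.983). Without tau 2 the first was 0.17 ± 0.10 (adjusted p = 0.701) and the second was 0.33 ± 0.08 (adjusted p = 0.0748).

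Zbtb16 encodes PLZF, a zinc finger repressor (chr9:48654297-48836222, minus strand). It was at 67.0 and 78.9 CPM in control, 79.8 and 101 CPM in tau and 77.4 and 95.2 CPM in treated tau. Tau 1 lay only just above control 2, and treated tau overlapped control. As for Klf9 and Errfi1, treated tau 2 was the second highest library, and treated tau 1 was 0.813 times as high. The log2 difference was 0.31 ± 0.14 for tau against control (edgeR adjusted p = 0.506), 0.24 ± 0.14 for treated tau against control (adjusted p = 0.449) and -0.07 ± 0.14 for treated tau against tau (adjusted p = 0.933). Tau against control was 0.13 ± 0.15 without tau 2 (adjusted p = 0.842) and 0.02 ± 0.14 without tau 2 and the library labelled control 1 (adjusted p = 0.975).

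Ddit4 (REDD1, chr10:59949669-59951834, minus strand) restrains the growth kinase complex mTORC1 and is induced by hypoxia and energy stress as well as by glucocorticoids. It was at 26.0 and 20.8 CPM in control, 19.7 and 35.7 CPM in tau and 26.5 and 16.4 CPM in treated tau. Each group overlapped each other one, and the pairs of tau and of treated tau were split in the same way as for Sgk1, tau 2 being 1.82 times tau 1 and treated tau 1 being 1.61 times treated tau 2. The log2 difference of tau from control was 0.22 ± 0.28 (edgeR adjusted p = 0.807), and -0.25 ± 0.26 without tau 2 (adjusted p = 0.829). Treated tau differed by -0.32 ± 0.28 from tau (adjusted p = 0.763) and by -0.11 ± 0.28 from control (adjusted p = 0.891). Of the 9 tested hypoxia and amino acid stress genes listed beside it, 1 passed in 1 comparison: Bnip3, a mitochondrial protein of hypoxia, fell by 0.42 ± 0.10 on the log2 scale in treated tau against tau (adjusted p = 0.0465), with the tau pair at 43.3 and 42.3 CPM and the treated pair at 30.7 and 33.3 CPM. With any 1 of the 6 libraries left out, no gene of this list was called in that comparison. The list had a median of -0.09 there, with 3 genes positive and 6 negative.

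Pdk4 encodes a kinase that shuts down pyruvate dehydrogenase and turns cells toward fatty acid use (chr6:5483351-5496309, minus strand). It was at 10.8 and 9.29 CPM in control, 9.86 and 19.9 CPM in tau and 8.13 and 9.28 CPM in treated tau. Only tau 2 stood apart, at 2.02 times tau 1 (95% exact counting interval 1.72 to 2.39), and treated tau 1 was the lowest library, the reverse of Sgk1. Pdk4 was the one gene of the 10 whose treated tau libraries both lay below both tau libraries. The log2 difference of treated tau from tau was -0.73 ± 0.28 (edgeR adjusted p = 0.305). It was -1.20 with tau 1 left out, where it passed (adjusted p = 0.0149), and -0.18 ± 0.20 with tau 2 left out (adjusted p = 0.869). Against control, tau was at 0.52 ± 0.28 (adjusted p = 0.547) and treated tau at -0.21 ± 0.29 (adjusted p = 0.778). The paralog Pdk2 had a log2 difference of 0.24 ± 0.12 in tau against control (adjusted p = 0.529).

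Errfi1, an inhibitor of EGF receptor signalling (chr4:150853919-150868892, plus strand), was at 33.0 and 28.2 CPM in control, 34.5 and 51.9 CPM in tau and 35.7 and 38.3 CPM in treated tau. Its groups were separated from control by a small margin, with tau 2 far above the rest. The log2 difference was 0.48 ± 0.18 for tau against control (edgeR adjusted p = 0.452) and 0.17 ± 0.15 without tau 2 (adjusted p = 0.776). It was 0.27 ± 0.17 for treated tau against control (adjusted p = 0.490) and -0.21 ± 0.17 for treated tau against tau (adjusted p = 0.743). The treated tau pair was close, with a ratio of 0.933 (95% exact counting interval 0.858 to 1.01), whereas tau 2 was 1.51 times tau 1 (1.37 to 1.65).

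Cdkn1a encodes p21, which stops the cell cycle and is best known as a p53 target (chr17:29090976-29100727, plus strand). It was at 9.27 and 5.17 CPM in control, 5.51 and 8.31 CPM in tau and 6.08 and 8.39 CPM in treated tau. The highest and the lowest library were both controls, and all groups overlapped. Its log2 differences were -0.10 ± 0.31, 0.09 ± 0.31 and -0.01 ± 0.29 in the 3 comparisons (edgeR adjusted p of 0.935 to 0.989). Its counts are uncertain, because 273 bases of its exons overlap an opposite-strand gene model, AC167363.2, and 8.49% of its 50-base stretches occur in other genes, against at most 1.40% for the other 9 genes. Of 10 other p53 targets none passed in any comparison, with a median log2 difference of 0.05 in tau against control. The smallest p among them was that of Ccng1, cyclin G1, at 0.32 ± 0.10 in treated tau against control (adjusted p = 0.116).

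Compared per kilobase of merged exon, as means over the 6 libraries with their SD, Klf9 stood highest at 41.2 ± 5.85 CPM per kilobase and Nr3c1 next at 30.0 ± 2.45. Their ranges did not overlap. Sgk1 (20.4 ± 11.6), Tsc22d3 (20.0 ± 6.36), Zbtb16 (15.8 ± 2.39), Ddit4 (13.8 ± 3.89) and Errfi1 (10.3 ± 2.25) followed, and in this order each range overlapped the next, from Nr3c1 down to Errfi1. Pdk4 (3.19 ± 1.24), Fkbp5 (2.99 ± 0.48) and Cdkn1a (2.0 ± 0.49) were lowest. Their ranges overlapped in turn, and Pdk4 lay below Errfi1 in every library. The place of Sgk1 came from tau 2 (42.2 CPM per kilobase) and treated tau 1 (24.8): in the other 4 libraries Sgk1 was at 13.2 to 15.3, below Tsc22d3 in each, and in tau 2 it was above Nr3c1 (29.7).

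As a set in tau against control, 9 of the 10 genes had a positive difference, with a median of 0.38 on the log2 scale against -0.003 over all genes tested. None passed, and 0% of all 20694 genes did (edgeR). At an unadjusted p below 0.05 there were 2059 genes, 5 of the 10 among them. DESeq2 called 51 genes, none of the 10. Both tau libraries lay above both controls for 7 of the 10 genes, against 20.3% of all genes. With tau 2 left out, 7 genes were positive and the median was 0.15.

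In treated tau against tau, 8 of the 10 genes were negative, with a median of -0.16. None of the 10 passed, while 3.76% of all genes did. The 10 are all protein-coding, and with protein-coding genes only far fewer genes were called, as given in the section on processing. No member lay above tau without overlap (21.2% of all genes did) and 1 lay below, Pdk4 (20.1% of all genes). Without tau 2, 9 of the 10 were positive with a median of 0.11. The sign of 7 genes therefore turned with that library: Sgk1, Fkbp5, Tsc22d3, Zbtb16, Ddit4, Klf9 and Errfi1.

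In treated tau against control, 7 of the 10 genes were positive, with a median of 0.26. None passed, while 4.22% of all genes did. Here too, far fewer genes were called with protein-coding genes only. Fkbp5, Tsc22d3, Klf9, Errfi1 and Nr3c1 lay above control in both libraries, which held for 23% of all genes, and Pdk4 lay below, which held for 23.3%. This comparison does not use tau 2 except in the shared estimate of spread.

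**Figure D2:**
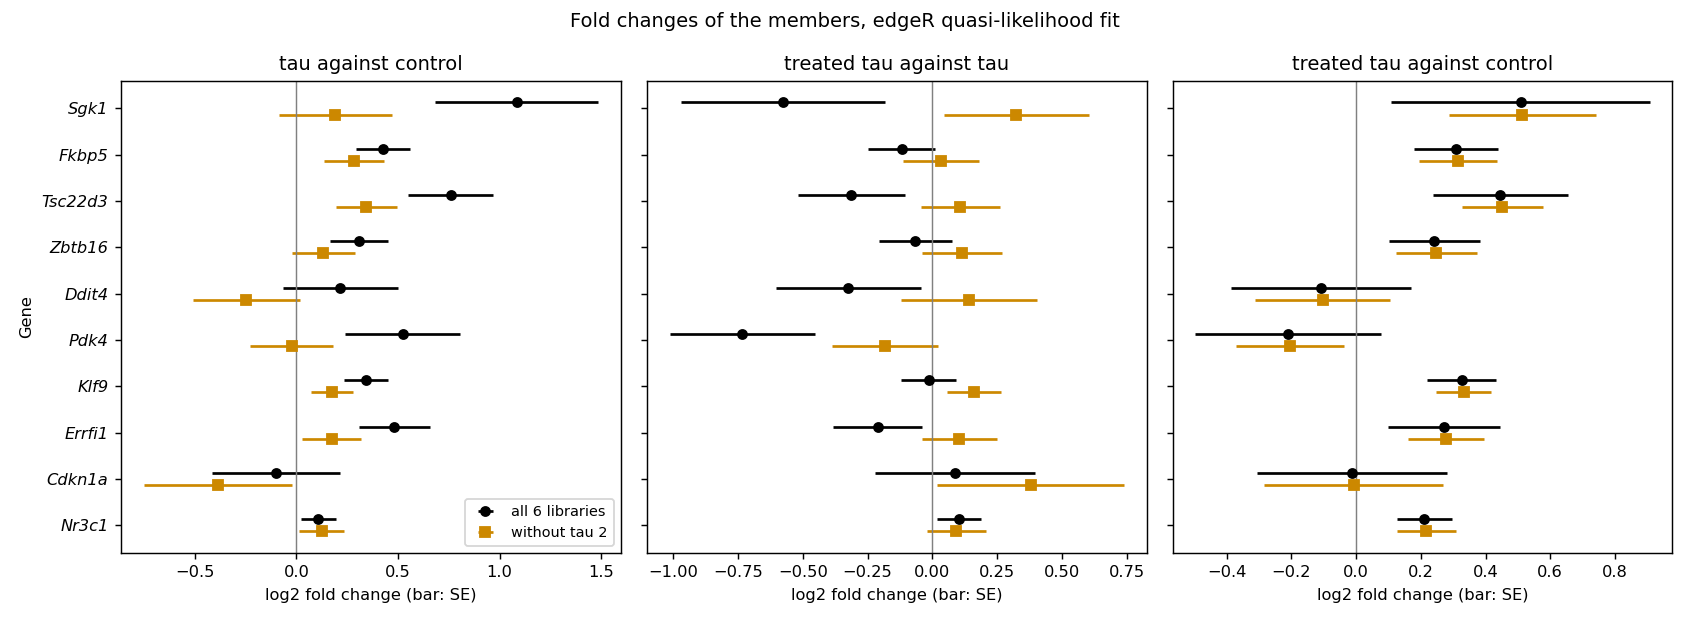
Log2 fold change (horizontal axis, bars show the SE) of each gene in the 3 comparisons, fitted on all 6 libraries (black circles) and without tau 2 (orange squares). For Sgk1 the value moves from 1.08 to 0.19 in tau against control and from -0.58 to 0.32 in treated tau against tau, and hardly moves in treated tau against control, from 0.51 to 0.51.

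By library, the median log2 deviation of the 10 genes from their 6-library mean was -0.19 for control 1, -0.21 for control 2, -0.06 for tau 1, 0.42 for tau 2 and 0.03 for each treated tau library. Of the 10 genes, 6 were at least 1.5 times as high in tau 2 as in tau 1, against 10.1% of all genes, namely Sgk1, Pdk4, Ddit4, Tsc22d3, Errfi1 and Cdkn1a. Treated tau 1 was at least 1.5 times treated tau 2 for Sgk1 and Ddit4, and 9.48% of all genes met that mark. The 10 genes thus did not share the high value of treated tau 1.

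Of 24 other listed glucocorticoid-induced genes, 23 were tested, Lcn2 being filtered out. Their medians by library were -0.19, -0.18, -0.01, 0.35, 0.07 and -0.08 in the same order, and 13 of the 23 were highest in tau 2. In tau against control 18 were positive and 5 negative with a median of 0.40, and none passed. Their median was -0.17 in treated tau against tau (7 positive, 16 negative) and 0.16 in treated tau against control (17 positive, 6 negative), again with none passing. Without tau 2 the median for tau against control was 0.15.

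Plin4, a lipid droplet coat protein and a strong glucocorticoid target, came closest to Sgk1 in this list. It was at 3.32 and 3.72 CPM in control, 7.00 and 22.2 CPM in tau and 9.32 and 3.84 CPM in treated tau. Tau 2 was 3.18 times tau 1 (95% exact counting interval 2.65 to 3.81) and treated tau 1 was 2.43 times treated tau 2 (1.94 to 3.06). The log2 difference of tau from control was 1.98 ± 0.57 (edgeR adjusted p = 0.441). Mt1, a metal-binding protein, differed by 0.53 ± 0.11, Mertk, a phagocytic receptor of glia, by 0.42 ± 0.11 and Sdc4, a cell surface proteoglycan, by 0.41 ± 0.11, each with an adjusted p of 0.441. Mertk was nearly equal in tau 1 and tau 2, at 56.2 and 56.5 CPM, and so did not share the split of the tau pair.

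**Figure D3:**
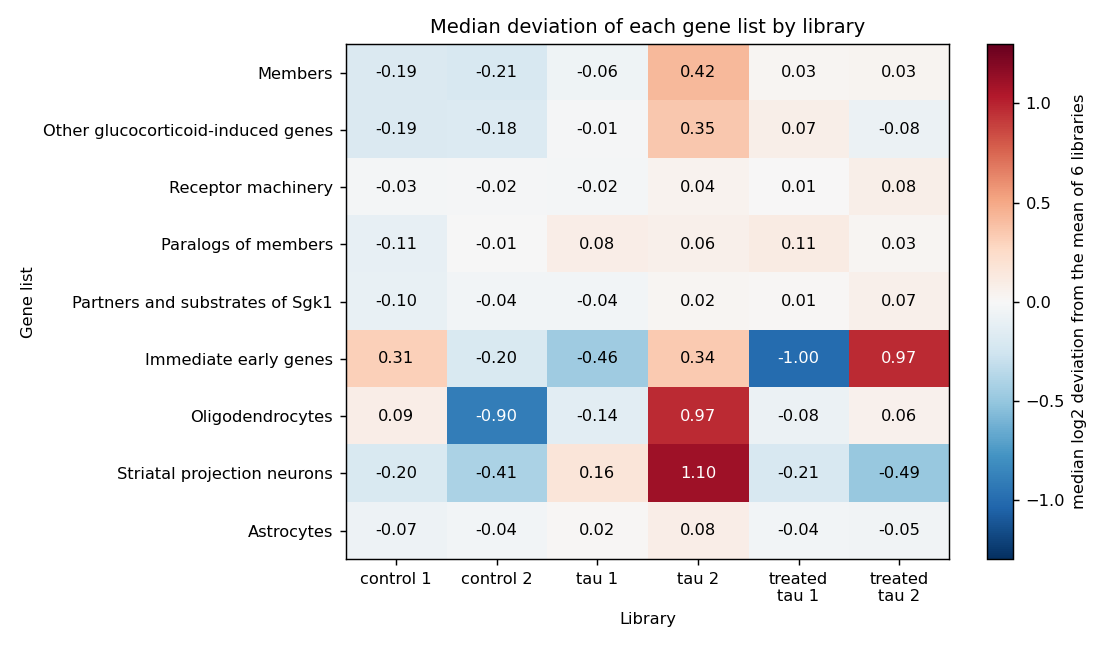
Median log2 deviation from the 6-library mean (colour and printed value) for 9 gene lists (vertical axis) in each library (horizontal axis). The 10 genes and the other glucocorticoid-induced genes are highest in tau 2 (0.42 and 0.35), as are the oligodendrocyte and striatal lists (0.97 and 1.10).

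Markers of oligodendrocytes and of striatal neurons were also highest in tau 2. All 10 oligodendrocyte markers were highest in tau 2 and lowest in control 2, and they summed to 3096 CPM in the library labelled control 1, to 1532 CPM in control 2, 2573 CPM in tau 1, 5800 CPM in tau 2, 2704 CPM in treated tau 1 and 3016 CPM in treated tau 2. All 9 striatal markers had their highest level in tau 2 as well. The myelin gene Mbp alone was 1.99 times as high in the library labelled control 1 as in control 2, where the Sgk1 ratio was 1.04. In the treated tau pair, Sgk1 was 1.86 times as high in treated tau 1, where the oligodendrocyte sum was the lower of the pair. In the tau pair both Sgk1 and that sum were higher in tau 2. The part of these markers in the high values of tau 2 was not tested.

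A list of 8 immediate early genes, which neuronal activity and handling induce within minutes, summed to 554 and 419 CPM in control, 352 and 714 CPM in tau and 250 and 950 CPM in treated tau. All 8 were highest in treated tau 2 and 6 were lowest in treated tau 1, the reverse of Sgk1 in that pair, whereas in the tau pair both were higher in tau 2. The 6 astrocyte markers had medians between -0.07 and 0.08 by library, but Gfap, the filament protein of reactive astrocytes, was at 60.1 and 49.5 CPM in control, 66.1 and 112 CPM in tau and 56.6 and 62.9 CPM in treated tau. Gfap was thus highest in tau 2, at 1.69 times tau 1, and its log2 difference was 0.69 ± 0.21 in tau against control (edgeR adjusted p = 0.441) and -0.56 ± 0.20 in treated tau against tau (adjusted p = 0.264). Tau 2 also had the fewest counts of the 6 libraries. The part of Gfap-rich cells, activity and depth in the results was not tested.

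**Figure D4:**
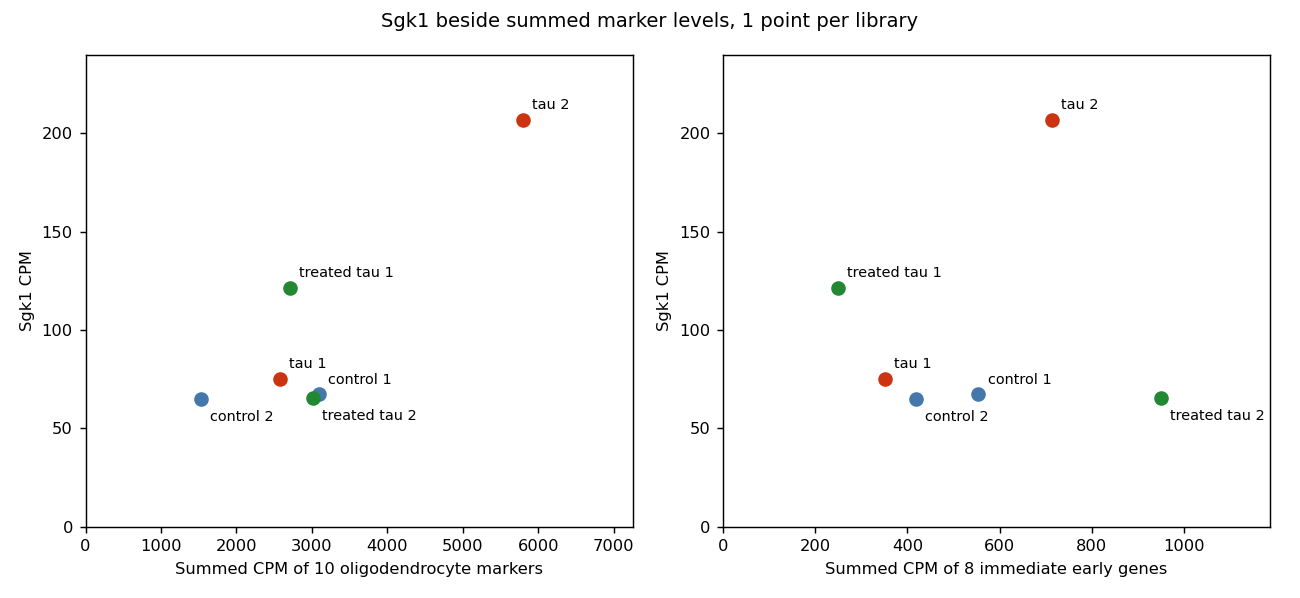
Sgk1 level in CPM (vertical axis) against the summed CPM of 10 oligodendrocyte markers (left) and of 8 immediate early genes (right), with 1 point per library coloured by group. Tau 2 is high on both horizontal axes, while treated tau 1, second for Sgk1 at 122 CPM, is at 2704 CPM for oligodendrocyte markers and lowest for immediate early genes.

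With predicted genes and pseudogenes left out by rule, which removed the gene at rank 2 of 10840, the 5 genes whose log2 CPM followed Sgk1 most closely over the 6 libraries were Slc7a4 (Pearson r = 0.996), Vamp3 (0.992), Kif1c (0.987), Osbpl11 (0.984) and Ptprd (0.982). Their own range was narrow: Slc7a4 went from 75.3 CPM in the library labelled control 1 to 89.9 CPM in tau 2. Among the other 9 genes r was 0.957 for Tsc22d3, 0.859 for Fkbp5, 0.841 for Ddit4, 0.828 for Errfi1, 0.718 for Pdk4, 0.692 for Klf9, 0.530 for Zbtb16, 0.177 for Cdkn1a and -0.02 for Nr3c1. Over the 5 libraries other than tau 2, r was 0.986 for Slc7a4, 0.854 for Tsc22d3, 0.695 for Fkbp5, 0.310 for Klf9 and -0.75 for Pdk4. These values describe 6 libraries that also differed in sequencing depth, in levels of cell type markers and in group.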

How the data were processed

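Bulk RNA of 6 libraries, 2 per group, was analysed. Per the labels' protocols, the RNA was treated with DNase, ribosomal RNA was removed, stranded Illumina libraries were sequenced, and Cutadapt trimming preceded TopHat2 alignment. The submitters' processing notes add SAMtools, featureCounts, edgeR and mm10. Not given in the sources used here are tool versions, whether counting used strand, and how multiply aligned reads were counted. The authors deposited raw read counts per gene symbol, 1 table per library. Each control or tau table listed 54429 symbols, and each treated tau table listed 54134. All tables share 53640 symbols. Treated tau tables lacked 789 symbols of the other groups and had 494 of their own. Unshared symbols held 0.333 to 0.352% of counts and were left out. The symbol list thus changed together with treatment, and the 2 cannot be told apart in comparisons with treated tau. Its effect on the counts of shared symbols was not tested.

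Groups came from the labels. edgeR 4.0.16 (R 4.3.3) fitted all 6 libraries in 1 quasi-likelihood model (TMM scaling, filterByExpr with minimum count 10, 3 residual degrees of freedom), with two-sided tests and Benjamini-Hochberg adjustment over the 20694 genes kept. Genes with adjusted p below 0.05 were called. The 3 comparisons share libraries. CPM are TMM-scaled, and log2 deviations use a prior count of 2. Ratios between libraries carry 95% exact counting intervals. The fit was run on simulated counts with the same spread for every gene, large changes only and no outlying library. That run cannot show how the fit handles a library such as tau 2. Alternatives were DESeq2 1.42.0, limma 3.58.1 (voom), other scalings, filters, gene sets and designs, and leaving out libraries. Named were all 10 members and, per list, up to 4 genes with the smallest p over the 3 comparisons. Nr3c2, Hsd11b1, Sgk2 and Sgk3 were named for their roles, with their values known. The members and lists were chosen with earlier results of these data known. P-values set the difference between groups against the spread between these samples, as estimated over all 3 groups. Loci come from GENCODE M21 (GRCm38, which is mm10) and promoter windows from RefSeq (GRCm38.p6).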

Additional observations from a re-analysis of the deposited data

How the results depend on the processing

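Most single-gene values kept their direction and their side of the threshold under the 17 other fits: 164 of 170 in tau against control, 150 in treated tau against tau and 159 in treated tau against control. Among the 10 genes the lowest count was 132 reads, for Cdkn1a in control 2, so that depth limits Cdkn1a most. With all libraries kept, Cdkn1a in treated tau against control was 0.01 with DESeq2, 0.021 with limma-voom and 0.0025 with no filter on low counts, and Klf9 in treated tau against tau was 0.0021 with no filter, each with the other sign. In tau against control, 51 genes were called with DESeq2 and 0 with edgeR. With protein-coding genes only, 45 genes were called in treated tau against tau (779 otherwise) and 40 in treated tau against control (873 otherwise). The causes were not tested.

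Leaving out each library in turn, where a lone library is assumed to vary like the other groups, gave 0 to 98 called genes in tau against control (98 without control 2, 9 without tau 2), 355 to 840 in treated tau against tau (355 without tau 1, 504 without tau 2, 429 without treated tau 1, 423 without treated tau 2) and 494 to 816 in treated tau against control (507 without treated tau 1, 494 without treated tau 2). Of the 10 members, 0 to 1 were called in treated tau against tau. Members whose sign changed are listed here, with Sgk1 and Tsc22d3 added in tau against control. Log2 differences in tau against control ranged from 0.191 to 1.65 for Sgk1 and 0.345 to 1.10 for Tsc22d3, without a change of sign. They ranged from -0.246 to 0.616 for Ddit4, -0.023 to 0.996 for Pdk4 and -0.463 to 0.382 for Cdkn1a. In treated tau against tau they ranged from -1.14 to 0.323 for Sgk1, -0.268 to 0.0316 for Fkbp5, -0.649 to 0.107 for Tsc22d3, -0.232 to 0.115 for Zbtb16, -0.721 to 0.142 for Ddit4, -0.170 to 0.159 for Klf9, -0.489 to 0.104 for Errfi1 and -0.215 to 0.379 for Cdkn1a. In treated tau against control they ranged from -0.0039 to 0.887 for Sgk1, -0.500 to 0.188 for Ddit4 and -0.370 to 0.471 for Cdkn1a.

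Without control 1 and tau 2 together, 130 genes were called in tau against control, where Ddit4 was -0.0758 and Cdkn1a 0.0947. In treated tau against tau Sgk1 was then 0.320, Fkbp5 0.0288, Tsc22d3 0.104, Zbtb16 0.113, Ddit4 0.138, Klf9 0.156 and Errfi1 0.102. In treated tau against control Tsc22d3 was 0.529, Ddit4 0.0624 and Cdkn1a 0.473.

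With the replicate block, on numbers not known to pair libraries, 0, 709 and 796 genes were called in the 3 comparisons, no member changed its call, and Sgk1 was at 1.05, -0.52 and 0.53. Deviations of same-numbered libraries correlated by 0.01, -0.01 and 0.07.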

Other observations

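Other glucocorticoid-induced genes split the treated tau pair in opposite ways. Of the 23 tested, 16 were higher in treated tau 1, against 10258 of all 20694 genes. By at least 1.5 times, 4 were higher in treated tau 1 and 1 in treated tau 2, against 1962 and 1387 of all genes. The genes named here were chosen after their values were seen, and their differences within the pair were not tested. Nfkbia, an inhibitor of NF-kB, was at 22.7 CPM in treated tau 1 and 13.2 CPM in treated tau 2, and at 16.4 CPM in tau 1 and 28.9 CPM in tau 2, the same arrangement as Sgk1, Ddit4 and Plin4. Arrdc2, an arrestin-domain protein, followed it with 9.24 and 5.85 CPM in the treated tau pair and 6.49 and 10.8 CPM in the tau pair.

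Dusp1, a MAP kinase phosphatase that is also an immediate early gene, was at 11.0 CPM in treated tau 1 and 30.4 CPM in treated tau 2. Per1, a circadian clock gene, was at 45.0 and 58.2 CPM in that pair. Both were higher in treated tau 2, as were all 8 immediate early genes, and both were also higher in tau 2 than in tau 1, at 26.8 against 19.1 CPM for Dusp1 and 56.9 against 44.6 CPM for Per1.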
